A study of Homo sapiens with 6 samples.

Results

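A set of 10 genes of the restriction point was followed, namely the D-type cyclins CCND1, CCND2 and CCND3, the E-type cyclins CCNE1 and CCNE2, the CIP/KIP inhibitors CDKN1A, CDKN1B and CDKN1C, and the INK4 inhibitors CDKN2C and CDKN2D. They were chosen by gene name, and all 10 were found among the 62252 genes summed from the transcripts of the deposited tables. The libraries came from K562, a line of erythroid leukemia cells, and had 2 groups of 3 biological replicates each: Chelator, cells kept overnight with 10 µM of the cell-permeable iron chelator 21H7, and DMSO, cells given a matched volume of that solvent. Both groups were the same unmodified line in the same medium, and no transgene or knockdown was involved. K562 is a single leukemic line that lacks functional p53, so it stands for no other cell type.

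Passage from G1 into S phase depends on cyclin-dependent kinases. D-type cyclins activate CDK4 and CDK6, E-type cyclins activate CDK2, and the active kinases phosphorylate the RB proteins, which frees E2F factors to switch on genes of DNA replication. INK4 proteins bind CDK4 and CDK6 and keep D-type cyclins off them, whereas CIP/KIP proteins bind cyclin and kinase together and inhibit mainly CDK2. In erythroid cells the exit from the cell cycle accompanies maturation, and p21, p27 and p18 are known for their part in it.

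Each library held 78.6 to 101 M estimated counts (M for mega). The gap between transcript length and effective length, a reading of the mean fragment length, was shorter in Chelator (200 to 218 bases) than in DMSO (252 to 264 bases), and this difference and the treatment cannot be told apart. DMSO replicate 2 stood apart from the other DMSO libraries, with a chi-square per gene of 44.3 and 63.5 against them, where DMSO replicates 1 and 3 differed by 8.52. Without it, 2 of the 10 genes were called and 8 had an adjusted p under 0.05, as with all libraries. Chelator replicate 1 stood apart from the other Chelator libraries, with a chi-square per gene of 29.9 and 28.1 against them and 6.54 between them. Without it, 2 of the 10 genes were called, 9 had an adjusted p under 0.05 and 0 were called for transcript usage. All 12 K562 markers were at 1 TPM (transcript abundance per length, on a scale with a fixed total per library) or more in every library, and they summed to 12868 to 14156 TPM in DMSO and 19795 to 20918 TPM in Chelator. Of these markers 7 were higher, the globins and TFRC among them, and 3 erythroid factors were lower, KLF1 (log2 fold change -0.72), NFE2 (-0.40) and TAL1 (-0.28). Of the megakaryocyte markers, 6 of 12 were under 1 TPM in every library and PF4 and SELP were at 0, while the summed level of the 12 was 92.4 to 97.5 TPM in DMSO and 115 to 139 TPM in Chelator. Of the 8 with an adjusted p, 4 were higher, THBS1 (log2 fold change 3.09), ITGB3 (1.95), ITGA2B (0.65) and GP1BB (0.37), and 0 lower, with a median of 0.65. The 6 T, B and monocyte markers, with MS4A1 at 0, summed to 11.8 to 17.8 TPM in DMSO and 42.5 to 44.3 TPM in Chelator. CD3D alone held 10.0 to 16.2 and 38.9 to 40.7 TPM of that, while the monocyte markers CD14 and CSF1R did not pass. The 7 epithelial and fibroblast markers summed to 660 to 756 and 1453 to 1649 TPM, mostly from KRT8 and KRT18, with 4 of them higher and 2, EPCAM and COL1A2, lower (log2 fold change -0.48 for both). The higher ones were KRT18 and, called, KRT8 (276 to 324 TPM in DMSO and 852 to 979 TPM in Chelator), COL1A1 (0.502 to 0.646 and 1.65 to 2.10 TPM) and PDGFRB (at most 0.0104 TPM and 1.53 to 1.92 TPM). The part of these shifts in the results below was not tested. In bulk RNA, fewer cells with an RNA and less RNA per cell cannot be told apart.

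The 10 genes moved in both directions. CDKN1A and CCND1 were called by DESeq2's Wald test (adjusted p under 0.05, and a log2 fold change beyond 1 in size), both higher in Chelator, which makes 2 of 10 against 10.8% of all genes tested (8.18% higher and 2.6% lower). At an adjusted p under 0.05 alone, 8 of 10 passed, 6 higher and 2 lower, against 37.7% of all genes (19.5% higher and 18.3% lower). The split was 4 higher and 3 lower with libraries centred on the mean, and 5 and 3 without the length offset. In normalized counts, the counts after division by library size and average transcript length, the groups did not overlap for any of the 10 genes, against 49.2% of all genes. The median log2 fold change of the 10 was 0.32, beside 0.02 over all genes.

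**Figure D1:**
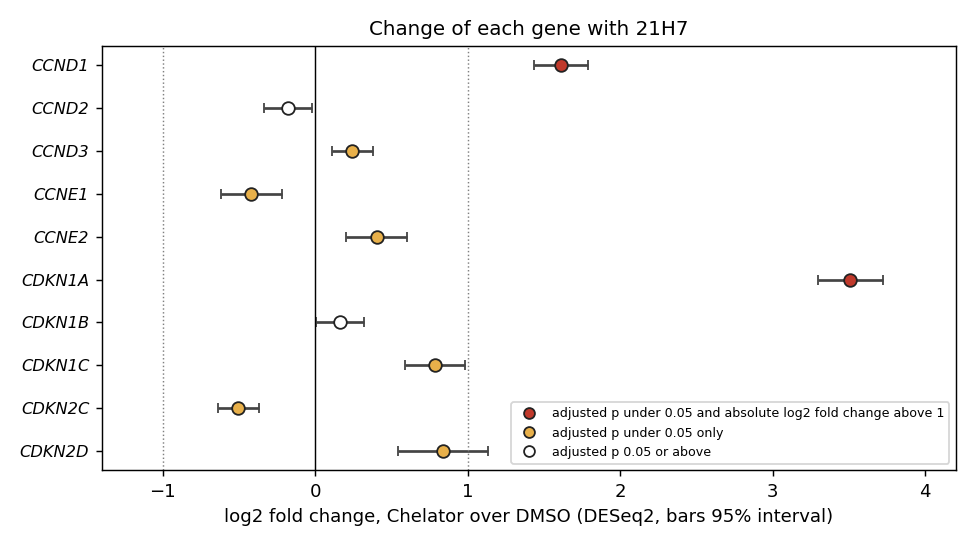
The plot shows the log2 fold change, Chelator over DMSO, of each of the 10 genes on the x axis with its 95% interval from DESeq2, and dotted lines mark an absolute value of 1. CDKN1A at 3.51 and CCND1 at 1.61 lie beyond the line, and CDKN2C at -0.51 is the lowest.

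Among the D-type cyclins, CCND1 rose, CCND3 rose slightly and CCND2 did not pass the test. CCND1 encodes cyclin D1, the D-type cyclin best known as a sensor of growth signals, and is at chr11:69641156-69654474 (GRCh38, plus strand). Its normalized counts were 1450, 1451 and 1630 in DMSO and 4971, 4380 and 4495 in Chelator. Every Chelator library was well above every DMSO library, with a log2 fold change of 1.61 ± 0.09 (SE, adjusted p = 9.93e-68 by DESeq2). In TPM, the scale that allows genes to be compared with each other, CCND1 went from 6.72 ± 0.593 (SD, n = 3) to 20.9 ± 0.849. Its main protein-coding transcript, CCND1-201, held 71.6% ± 5.61 of the gene's TPM in DMSO and 67.1% ± 3.66 in Chelator, and the retained-intron transcript CCND1-204 held 13.6% ± 4.31 and 19.0% ± 2.18. The usage of CCND1 transcripts did not pass the test (edgeR Simes adjusted p = 1). LTO1, which overlaps the gene on the other strand, shared 9.36% of the 31-base words of CCND1 transcripts together with minor partners, and its own log2 fold change was 0.28.

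CCND3 (chr6:41934934-42050357, minus strand), which encodes cyclin D3, was the most abundant of the 10 genes in both groups. It had normalized counts of 28254, 25615 and 26752 in DMSO and 31871, 30831 and 32756 in Chelator. The Chelator libraries were all higher, by a small margin, with a log2 fold change of 0.24 ± 0.07 (SE, adjusted p = 0.00123 by DESeq2). The log2 fold change was 0.12 without the length offset (adjusted p = 0.14 by DESeq2) and 0.08 with libraries centred on their mean change (adjusted p = 0.47 by DESeq2). CCND3 held 85.4% ± 0.737 of the summed TPM of D-type cyclins in DMSO and 84.0% ± 1.06 in Chelator, while the share of CCND1 went from 2.94% ± 0.227 to 7.45% ± 0.430 and that of CCND2 from 11.7% ± 0.513 to 8.57% ± 0.819.

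Within CCND3, 2 short transcripts from a distal start gained share. The annotation (GENCODE release 44) gives a proximal start at chr6:41941808, used by CCND3-203, and a group of 15 transcripts that start between 42048534 and 42048968 on the same minus strand. The distal group summed to 15.6, 12.0 and 12.3 TPM in DMSO and to 43.6, 43.6 and 46.8 TPM in Chelator. Its share of the gene was 6.82% ± 1.15 in DMSO and 18.9% ± 0.365 in Chelator, with no overlap, while CCND3-203 itself was at 173, 190 and 169 TPM and at 181, 185 and 188 TPM. The usage test of CCND3 (edgeR diffSpliceDGE) gave a Simes adjusted p = 5.49e-07, and 9.22% of all genes tested were called. The gain of the group lay in 2 short transcripts without a defined coding sequence, chosen after their values were seen. Without them, the summed TPM of the distal group overlapped between DMSO and Chelator. CCND3-220, of 476 bases, was at 0, 0.117 and 0 TPM in DMSO and at 18.1, 14.6 and 20.9 TPM in Chelator. The slightly longer CCND3-219 was at 3.37, 0 and 0 TPM and at 13.8, 15.1 and 17.1 TPM. CCND3-220 reached the count filter of that test only through the Chelator libraries, where it is high. CCND3-219 had 90.9 counts in DMSO replicate 1 and 0 in the other DMSO libraries, so it needed the Chelator libraries too. The call is therefore given as a description and supports nothing. CCND3-219 has no 31-base word of its own and CCND3-220 has 16.1%, so their counts rest on how salmon divided shared reads. The effective length of transcripts this short depends most on fragment length, which differed between the groups, and its part in this result was not tested. The usage call was lost without Chelator replicate 1 (edgeR adjusted p = 0.0634) and without Chelator replicate 2 (edgeR adjusted p = 0.108).

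The windows around these starts run from 250 bases before to 50 after each (RefSeq, GRCh38.p14). They are shown because the distal one lies at the start of CCND3-219 and CCND3-220, whose counts rest on shared reads. Capitals mark the GC box GGGCGG on either strand, the letters bound by Sp/KLF factors.
CCND3 distal, chr6:42048639-42048938, minus strand: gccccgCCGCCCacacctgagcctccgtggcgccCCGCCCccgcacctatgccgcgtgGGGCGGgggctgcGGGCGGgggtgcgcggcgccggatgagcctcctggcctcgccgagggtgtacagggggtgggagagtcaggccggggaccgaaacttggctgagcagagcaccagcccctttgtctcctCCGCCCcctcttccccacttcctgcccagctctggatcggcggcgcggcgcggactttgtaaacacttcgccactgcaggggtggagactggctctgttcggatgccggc
CCND3 proximal, chr6:41941759-41942058, minus strand: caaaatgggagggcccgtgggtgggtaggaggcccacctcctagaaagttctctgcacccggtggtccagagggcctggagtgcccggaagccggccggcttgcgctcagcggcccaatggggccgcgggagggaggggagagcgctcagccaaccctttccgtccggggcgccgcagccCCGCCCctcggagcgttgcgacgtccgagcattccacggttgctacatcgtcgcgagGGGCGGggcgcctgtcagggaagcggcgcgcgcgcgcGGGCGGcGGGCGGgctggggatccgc
The distal window held 5 GC boxes and the proximal window 4, and 45.0% of 35116 promoter windows held at least 1.

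CCND2 (chr12:4269771-4305353, plus strand) encodes cyclin D2, a D-type cyclin of blood and germ cells. The normalized counts of CCND2 were 9676, 9449 and 10153 in DMSO and 8980, 9070 and 7828 in Chelator. The groups did not overlap on this scale, but the log2 fold change of -0.18 (SE 0.08) did not pass the test (DESeq2 adjusted p = 0.0675), and the TPM ranges, 24.9 to 28.8 and 21.9 to 26.1, overlapped. The value moved with several choices. It passed at -0.35 with libraries centred on the mean (adjusted p = 0.000221 by DESeq2) and at -0.20 without Chelator replicate 1 (adjusted p = 0.0474 by DESeq2), and it was -0.11 without Chelator replicate 3 (adjusted p = 0.272 by DESeq2). With no offset for length it became -0.63 (adjusted p = 1.05e-18 by DESeq2), and the gene's effective length averaged 5480 ± 220 bases over the DMSO libraries and 4046 ± 312 over the Chelator libraries.

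The average length is weighted by the transcripts' TPM, and a short transcript gained weight. The full-length CCND2-201, of 6493 bases, was at 21.8, 27.5 and 24.3 TPM in DMSO and at 15.7, 14.9 and 15.2 TPM in Chelator. CCND2-202, of 1062 bases, ends in an alternative last exon at chr12:4297757-4297968 and has no defined coding sequence. It was at 1.55, 0.274 and 0.980 TPM in DMSO and at 6.52, 9.26 and 5.56 TPM in Chelator. Neither transcript's groups overlapped, and the share of CCND2-202 went from 3.63% ± 2.64 to 29.2% ± 5.48 of the gene. The usage call of CCND2 was at the threshold (edgeR Simes adjusted p = 0.049) and was lost when any 1 library was left out, with a Simes adjusted p between 0.0536 and 0.353. Of the 6 CCND2 transcripts tested, a retained-intron one reached the count filter only through the Chelator libraries (21.5 to 50.5 counts, 0 to 8.88 in DMSO). The call is thus given as a description. The transcripts of CCND2 share 12.2% of their 31-base words with other expressed genes, mainly ENSG00000285901 on the same strand.

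**Figure D2:**
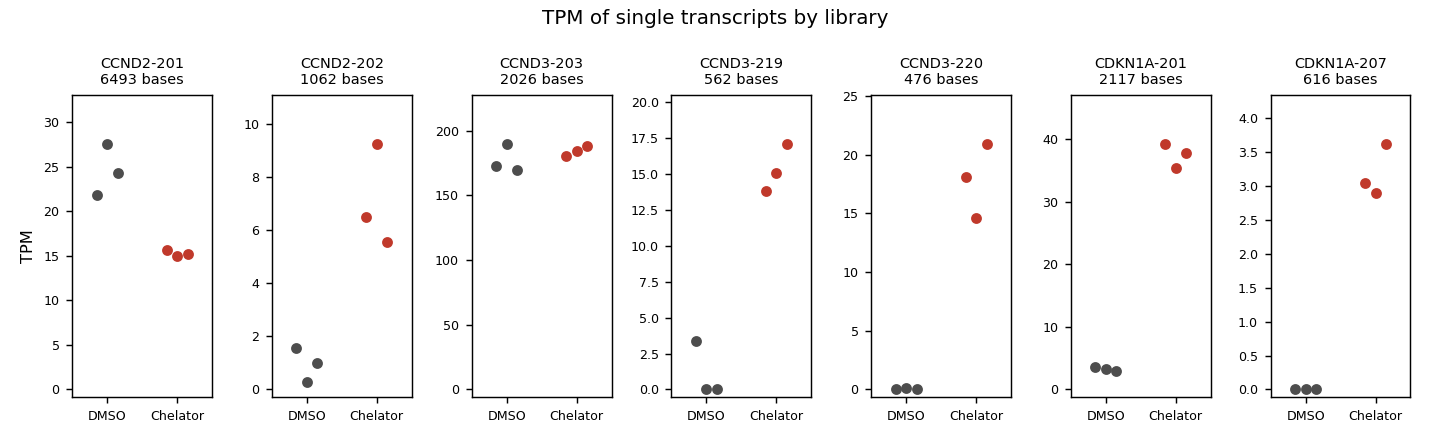
The plot gives the TPM (y axis, its own range in each panel) of 7 transcripts in the 3 DMSO and 3 Chelator libraries, 1 point a library, with the transcript length in the panel title. CCND2-201 was lower and CCND2-202, CCND3-219, CCND3-220 and CDKN1A-207 were higher in every Chelator library, while the ranges of CCND3-203 overlapped.

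The E-type cyclins, which activate CDK2 late in G1, moved apart. CCNE1 (chr19:29811991-29824312, plus strand), encoding cyclin E1, had normalized counts of 2704, 2346 and 2606 in DMSO and of 1702, 1988 and 2028 in Chelator. It was lower in each Chelator library, with a log2 fold change of -0.42 ± 0.10 (SE, adjusted p = 0.00018 by DESeq2). CCNE2 (chr8:94879770-94896678, minus strand), encoding cyclin E2, had normalized counts of 835, 795 and 864 in DMSO and of 1092, 1120 and 1084 in Chelator. It was higher in each Chelator library, with a log2 fold change of 0.40 ± 0.10 (SE, adjusted p = 0.000423 by DESeq2), and of 0.23 when libraries were centred on the mean (adjusted p = 0.08 by DESeq2). CCNE2 transcripts share 36.0% of their 31-base words with INTS8, an Integrator subunit gene on the other strand whose own log2 fold change was -0.46, so the count of CCNE2 is uncertain. The sum of both cyclins was 30.0 ± 0.975 TPM in DMSO and 27.9 ± 2.32 TPM in Chelator, with overlapping ranges, while the share of CCNE2 in it went from 28.3% ± 0.975 to 41.2% ± 2.28. Usage of CCNE1 transcripts was not called by edgeR (Simes adjusted p = 0.97), and CCNE1-201 held 78.8% ± 6.06 of the gene in DMSO and 68.8% ± 3.33 in Chelator. The shorter coding transcripts held less, CCNE1-205 with 10.1% ± 1.58 and 13.8% ± 1.77, and CCNE1-202 with 7.73% ± 3.90 and 13.2% ± 1.53. CCNE2 was divided mainly between CCNE2-202, with 57.8% ± 3.72 in DMSO and 53.6% ± 2.39 in Chelator, and CCNE2-201, with 33.0% ± 4.90 and 35.0% ± 2.18.

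The CIP/KIP inhibitors contained the largest rise. CDKN1A encodes p21, the inhibitor through which p53 and other stress signals halt the cycle, and is at chr6:36676460-36687337 on the plus strand. CDKN1A had normalized counts of 623, 490 and 497 in DMSO and 6521, 5604 and 6250 in Chelator. The lowest Chelator library was many times the highest DMSO library, and the fitted fold was 11.4 (log2 fold change 3.51, SE 0.11, DESeq2 adjusted p = 1.39e-221). Over all alternatives the log2 fold change ran from 3.22 to 3.63. In TPM it went from 3.54 ± 0.371 to 41.3 ± 2.06, which moved it from the ninth to the second place among the 10 genes. DINOL, an RNA on the other strand that shares 3.92% of the 31-base words of CDKN1A, had at most 10 counts in a library.

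The protein-coding transcript CDKN1A-201 carried most of the rise, at 3.59, 3.32 and 2.91 TPM in DMSO and 39.2, 35.4 and 37.7 TPM in Chelator. It held 92.5% ± 0.587 of the gene in DMSO and 90.8% ± 1.19 in Chelator. The shares of CDKN1A-203 and CDKN1A-207, both chosen after their values were seen, moved most. CDKN1A-203, coding and 2267 bases long, went from a share of 7.51% ± 0.587 to 0.842% ± 0.614. Its level was 0.277, 0.296 and 0.225 TPM in DMSO and 0.061, 0.503 and 0.460 TPM in Chelator, with overlapping ranges. Only 0.18% of its 31-base words are its own. CDKN1A-207, 616 bases long with no defined coding sequence, went from 0 in every DMSO library to 7.71% ± 0.760. Both have the longer first exon, which ends at 36678939, and transcripts with that exon held 7.51% ± 0.587 of the gene in DMSO and 9.01% ± 1.46 in Chelator, with overlapping ranges. CDKN1A-207 has no 31-base word of its own. It reached the count filter of the usage test only through the Chelator libraries, so the gene's usage call (edgeR Simes adjusted p = 0.00223) is no evidence of a change in usage, and the call was lost without each Chelator library in turn (Simes adjusted p 0.111 to 0.249).

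The window around the main start of CDKN1A is shown because this gene rose most, with the GC box in capitals.
CDKN1A, chr6:36678464-36678763, plus strand: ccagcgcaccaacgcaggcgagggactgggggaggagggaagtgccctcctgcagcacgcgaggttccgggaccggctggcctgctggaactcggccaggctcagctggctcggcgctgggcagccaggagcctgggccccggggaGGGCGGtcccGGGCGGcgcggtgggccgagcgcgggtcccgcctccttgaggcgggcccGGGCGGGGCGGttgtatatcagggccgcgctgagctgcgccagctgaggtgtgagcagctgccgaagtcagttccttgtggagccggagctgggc
It held 4 GC boxes, the last 2 of which share a base, and no TATAAA.

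CDKN1C (chr11:2883213-2885775, minus strand) encodes p57, the imprinted member of the family. CDKN1C counts, normalized, were 1950, 1793 and 2069 in DMSO and 3639, 3023 and 3362 in Chelator. All Chelator libraries were higher, with a log2 fold change of 0.79 ± 0.10 (SE, adjusted p = 4.55e-14 by DESeq2), under the fold threshold. CDKN1C-204 held 81.5% ± 3.83 of the gene in DMSO and 80.4% ± 2.01 in Chelator.

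CDKN1B (chr12:12685498-12722369, plus strand) encodes p27, the inhibitor of quiescent and maturing cells. Its normalized counts were 2954, 2790 and 2742 in DMSO and 3041, 3131 and 3335 in Chelator. The groups did not overlap, by a narrow margin, and the log2 fold change of 0.16 (SE 0.08, 95% interval 0.00 to 0.32) did not pass the test (DESeq2 adjusted p = 0.103), while the TPM ranges overlapped. Its adjusted p was 0.04 by edgeR and 0.02 with TMM size factors, and its log2 fold change was -0.00 when libraries were centred on the mean (adjusted p = 0.98). CDKN1B-201 made up 98.1% ± 0.38 of the gene in DMSO and 97.0% ± 1.07 in Chelator.

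The summed TPM of the 3 CIP/KIP genes was 36.8 ± 2.06 in DMSO and 88.6 ± 3.32 in Chelator, with no overlap. In that sum CDKN1A went from 9.62% ± 0.998 to 46.6% ± 0.742, CDKN1B from 49.2% ± 1.73 to 23.4% ± 1.80 and CDKN1C from 41.1% ± 2.21 to 30.0% ± 1.07. The most abundant CIP/KIP RNA was thus CDKN1B in every DMSO library and CDKN1A in every Chelator library.

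**Figure D3:**
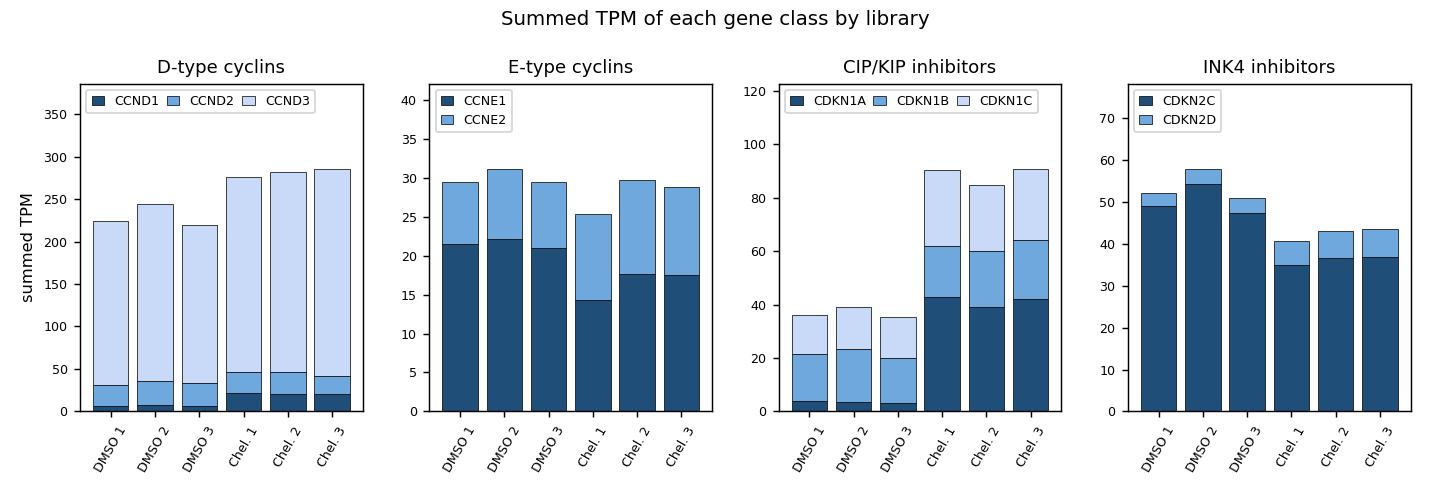
Stacked bars give the summed TPM (y axis from 0, its own range in each panel) of the genes of each class in each library. The CIP/KIP bars stand at 35.3 to 39.1 TPM in DMSO and 84.8 to 90.8 TPM in Chelator, and the INK4 bars are lower in Chelator.

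The INK4 inhibitors moved apart. CDKN2C (chr1:50960745-50974634, plus strand) encodes p18, an INK4 protein known from differentiating blood cells, and had the largest fall of the 10 genes with the length offset (without it, -0.51 against -0.63 for CCND2). The normalized counts of CDKN2C were 8059, 7538 and 7671 in DMSO and 5452, 5367 and 5571 in Chelator. The groups were well apart, with a log2 fold change of -0.51 ± 0.07 (SE, adjusted p = 1.72e-12 by DESeq2). CDKN2C-203 held 89.0% ± 2.05 of the gene in DMSO and 86.3% ± 1.47 in Chelator, and usage did not pass the test (edgeR Simes adjusted p = 1). ENSG00000290102, on the other strand, shares 19.7% of the 31-base words of CDKN2C and had at most 29 counts in a library.

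CDKN2D (chr19:10566460-10569059, minus strand) encodes p19, an INK4 protein known for an RNA that varies over the cell cycle. Normalized CDKN2D counts were 310, 289 and 340 in DMSO and 511, 569 and 598 in Chelator. All Chelator libraries were higher, with a log2 fold change of 0.84 ± 0.15 (SE, adjusted p = 1.77e-07 by DESeq2). Of its 2 protein-coding transcripts, CDKN2D-202 held 53.7% ± 3.70 of the gene in DMSO and 43.4% ± 2.48 in Chelator and CDKN2D-201 the rest, a difference that did not pass the usage test (edgeR Simes adjusted p = 1). The sum of both INK4 genes was 53.8 ± 3.73 TPM in DMSO and 42.5 ± 1.62 TPM in Chelator, with no overlap, and CDKN2D made up 6.44% ± 0.514 and 14.9% ± 0.935 of it. CDKN2A and CDKN2B, the other 2 INK4 genes, were listed at 0 counts in all 6 libraries, which allows up to 3 counts in each by counting error alone. K562 is known to carry a deletion of that locus.

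The window of the main CDKN2C start is shown beside that of CDKN1A, as the lowest of the 10 genes in the fit with the length offset, again with GC boxes in capitals.
CDKN2C, chr1:50968456-50968755, plus strand: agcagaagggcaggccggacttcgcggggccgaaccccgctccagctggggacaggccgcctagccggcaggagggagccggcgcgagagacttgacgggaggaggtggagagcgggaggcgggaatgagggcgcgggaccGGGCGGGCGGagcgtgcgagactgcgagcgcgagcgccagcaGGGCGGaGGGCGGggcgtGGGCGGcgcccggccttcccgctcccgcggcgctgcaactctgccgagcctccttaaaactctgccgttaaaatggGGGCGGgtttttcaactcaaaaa
It held 6 GC boxes, against 4 for CDKN1A. RefSeq windows of 6 of the 10 genes were used, 10 windows in all, and those of CCND1, CCND2, CCNE2 and CDKN1C were not analysed here. Of these windows 8 held GGGCGG, 5 held CCAAT (34.6% of all windows), 2 held CACGTG (7.26%), and 3 held ACGTG (21.4%), whose letters lie within CACGTG. None held TATAAA (11.5%), TGANTCA (7.71%), TTTGGCG (1.92%) or TTTCGCG (1.32%), all searched on both strands.

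**Figure D4:**
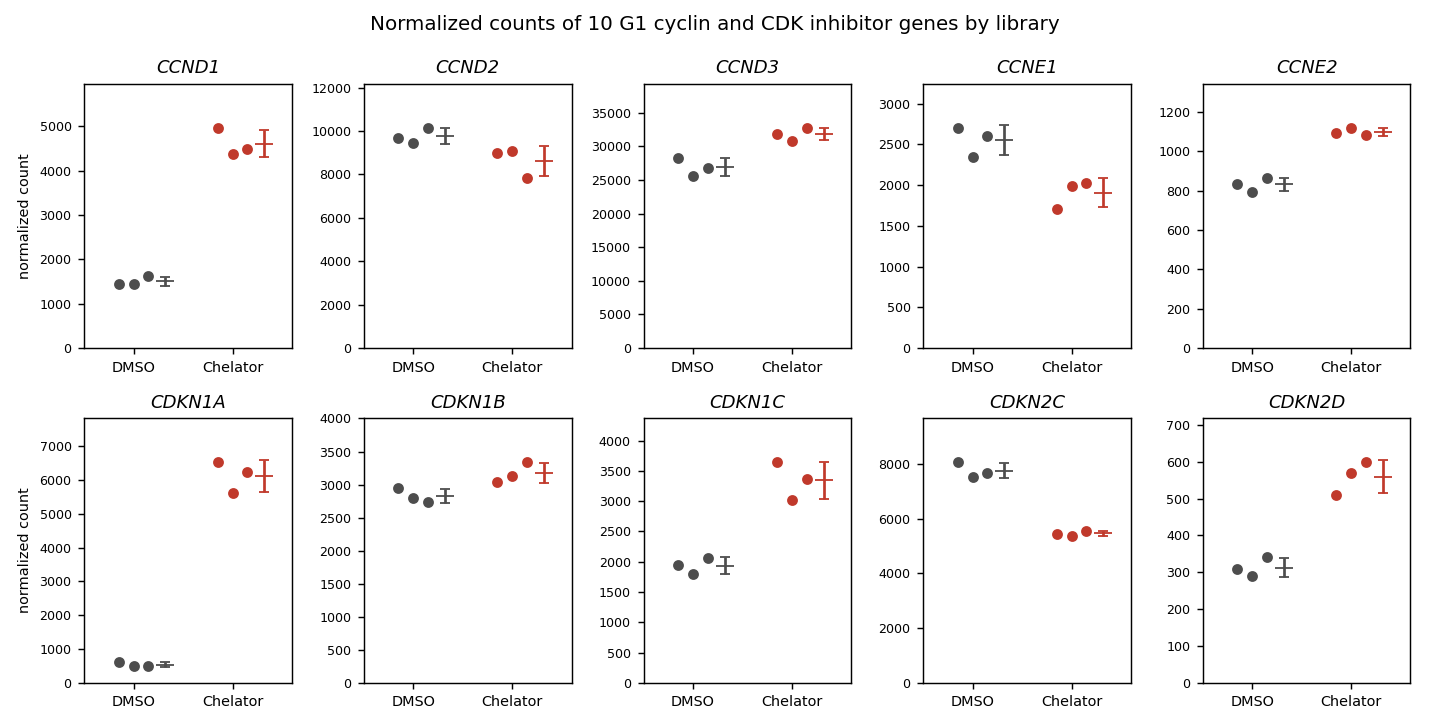
Each panel gives the normalized count (y axis from 0) of a gene in the 3 DMSO and 3 Chelator libraries, with 1 point a library and the mean ± SD beside the points. The groups did not overlap for any of the 10 genes, and CDKN1A and CCND1 have the widest gaps.

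By TPM, the order in DMSO was CCND3, CDKN2C, CCND2, CCNE1, CDKN1B, CDKN1C, CCNE2, CCND1, CDKN1A and CDKN2D, and the ranges of the last 2 overlapped. The order in Chelator was CCND3, CDKN1A, CDKN2C, CDKN1C, CCND2, CCND1, CDKN1B, CCNE1, CCNE2 and CDKN2D. There, each of the neighbours from CDKN1C to CDKN1B had overlapping ranges.

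The patterns of CDKN1A and CDKN2C were each compared with those of the other genes in a set of 9654 protein-coding genes. The measure was the root mean square difference of centred log2 normalized counts over the 6 libraries. With 2 groups of close replicates it follows mainly the fold change, so nearness need not mean a pattern shared beyond that. The nearest to CDKN1A were GDF15, a secreted stress cytokine (0.102, log2 fold change 3.58), SP6, a factor of the Sp/KLF family (0.111, log2 fold change 3.63), and EGR1, an immediate early factor (0.130, log2 fold change 3.30). The nearest to CDKN2C were NR2F6, an orphan nuclear receptor (0.0099, log2 fold change -0.50), SCML2, a Polycomb protein (0.0183, log2 fold change -0.49), and TACO1, a mitochondrial translation factor (0.0239, log2 fold change -0.49).

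Of 44 partner genes of these cyclins and inhibitors in G1, 41 had an adjusted p, of which 7 were higher, 13 lower and 21 did not pass, against 19.5% of all genes higher and 18.3% lower, with a median log2 fold change of -0.14. Only CDK6, a kinase of the D-type cyclins, passed the fold threshold, 1 of 41 against 2.6% of all genes called lower and 8.18% called higher, at -1.05 ± 0.10 (SE, adjusted p = 7.07e-24 by DESeq2), and its log2 fold change was -0.94, short of the threshold, without DMSO replicate 2 and -0.98 by limma on log2(TPM + 1). CDK4, its close relative, was lower by a log2 fold change of -0.55. SKP2, the F-box protein that marks p27 for degradation, was lower at -0.95 ± 0.07 (SE, adjusted p = 2.15e-38 by DESeq2), and passed the fold threshold at -1.11 with libraries centred on the mean. The largest rises were E2F1 at 0.59, LIN37, a subunit of the MuvB core, at 0.52 and CDK7, a kinase that activates the other CDKs, at 0.45. With centring on the mean LIN37 was at 0.35 and did not pass (adjusted p = 0.0847 by DESeq2), and CDK7 was at 0.28. Of 20 E2F target genes of S phase entry 4 were higher, 9 lower and 7 did not pass, beside the same shares of all genes (19.5% higher and 18.3% lower), with a median log2 fold change of -0.14. Among them UHRF1 (-0.42), PCNA (-0.40) and POLA1 (-0.32) were lower, and TK1 (0.34), CDT1 (0.29) and RRM2 (0.28) were higher. These rises did not pass with centring on the mean, which gave 0.17 for TK1, 0.12 for CDT1 and 0.11 for RRM2 (DESeq2 adjusted p = 0.0779, 0.232 and 0.318). RRM2 also did not pass without the length offset (0.16, adjusted p = 0.0582 by DESeq2), and POLA1 was at -0.49 with centring.

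Because CDKN1A is a classic p53 target, 20 other p53 targets were listed. Of these 19 had an adjusted p, of which 9 were higher, 4 lower and 6 did not pass, against 19.5% and 18.3% of all genes, with a median log2 fold change of 0.24. TP53INP1 (1.94), TNFRSF10B (1.80), a death receptor, and BBC3 (1.55), the apoptosis gene PUMA, were called higher by DESeq2, beside 8.18% of all genes, and TP53INP1 was at 1.01 by limma on log2(TPM + 1). ZMAT3, an RNA-binding protein gene, was called lower at -1.13, beside 2.6% of all genes, but was at -0.91 by limma, short of the fold threshold. AEN (-0.57) and MDM2 (-0.33), the ubiquitin ligase of p53, were lower under the fold threshold, and MDM2 was at -0.55 without the length offset.

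**Figure D5:**
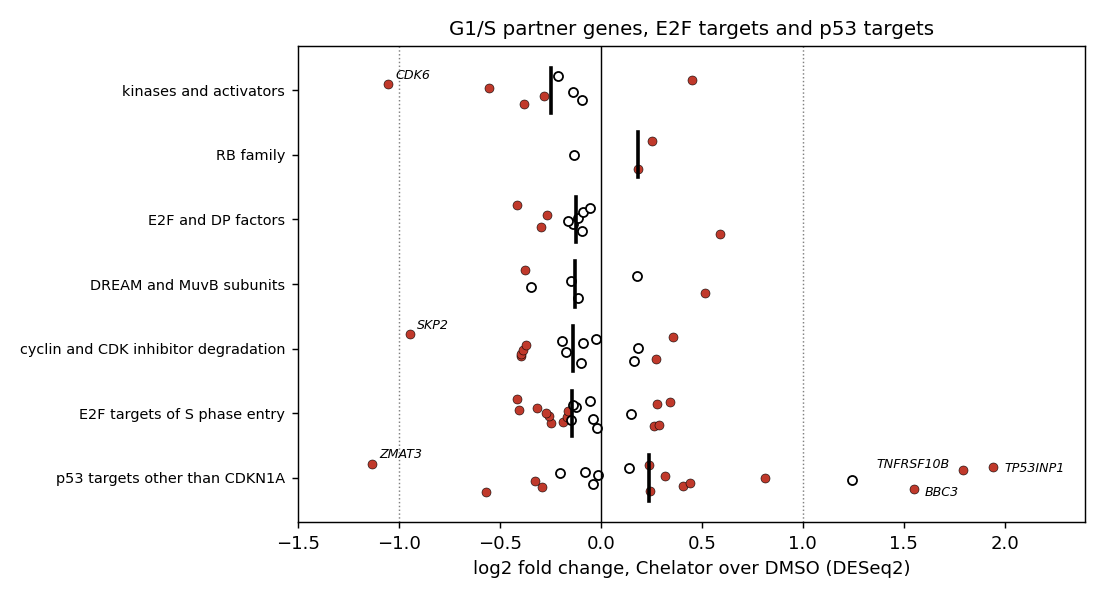
The plot shows the log2 fold change (x axis, Chelator over DMSO) of each listed gene with an adjusted p, filled at an adjusted p under 0.05, with a vertical bar at each list's median. CDK6 at -1.05 is the only G1 partner beyond the dotted line at an absolute value of 1, whereas TP53INP1, TNFRSF10B, BBC3 and ZMAT3 are the filled points beyond it among the p53 targets.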

How the data were processed

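Polyadenylated RNA of 6 K562 libraries was sequenced as paired-end Illumina reads. The authors quantified the reads with salmon (1.10.2 in the submitters' processing notes). The deposited tables hold, per transcript, estimated counts, which need not be whole, and TPM, which the authors' tool scaled to the same sum in each library. The annotation and any bias correction were not given in the sources used here. Of 252045 transcripts 251612 were matched to GENCODE release 44 (GRCh38), and the rest, under 0.151% of the counts, were left out.

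Estimated counts were summed over 62252 genes and rounded. Genes with a total above 10 (26074) were tested with DESeq2 1.42.0 (Wald test, median-ratio size factors, Benjamini-Hochberg adjustment) in R 4.3.3. The tool, test, adjustment and count minimum follow the study's methods, while the offset for average transcript length was a choice made here. An adjusted p was given to 24542. Transcript usage was tested with edgeR 4.0.16 (diffSpliceDGE, quasi-likelihood fit) for transcripts that reached 10 counts in 3 or more libraries. Usage calls needed an adjusted Simes p under 0.05 and a transcript share that moved by more than 5 percentage points. Alternatives included limma 3.58.1 on log2(TPM + 1). The steps were tested on simulated data. Python 3.11.15 and matplotlib 3.10.9 served for sums and plots.

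All 10 genes are described. Partner, E2F and p53 target genes were named if called, or if among the 3 largest rises or falls at an adjusted p under 0.05 and 100 or more normalized counts on average. Transcripts were named at a share of 10% or more, and CCND3-219, CCND3-220, CDKN1A-203 and CDKN1A-207 outside that rule after their values were seen. The 3 nearest patterns were taken among protein-coding genes averaging 500 or more normalized counts. The 10 genes and the lists were chosen with earlier results of these data known. Groups came from the sample labels. The p-values cover the spread between these cultures, at a depth of 78.6 to 101 M counts a library. Values are mean ± SD over 3 libraries. Sharing was counted in 31-base words.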

Additional observations from a re-analysis of the deposited data

How the results depend on the processing

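The count of 2 called genes held under all 14 alternatives, and the count of genes with an adjusted p under 0.05 (8) ran from 7 to 9. Of 140 log2 fold changes of the 10 genes under alternatives, 131 kept direction and side of the threshold, 5 passed it newly, 3 fell short of it and 1 reversed: CDKN1B was -0.0044 when libraries were centred on the mean, a setting that moves the median of all genes to -0.15. With a replicate block, 2 genes were called and 8 had an adjusted p under 0.05, by the same rules. The correlations of deviations between libraries of one number were -0.07, 0.13 and 0.10, and those of unlike numbers ran from -0.16 to 0.08. With 3 libraries a group, these values cannot tell whether the samples were paired. The CCND2 usage call was lost with the block (Simes adjusted p = 0.19). Of the genes called for transcript usage, 3 in all, leaving out 1 library left 0 to 2, with 0 without Chelator replicate 1, 0 without Chelator replicate 2 and 1 without Chelator replicate 3. CCND3-220 and CDKN1A-207, near 0 in DMSO, then miss the filter of 10 counts in 3 libraries by construction. By limma diffSplice 4 were called, CCNE1 in addition (adjusted p = 0.02), and a likelihood ratio fit, added after seeing the data, called 3.

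Limits: both groups have 3 libraries, fragment length moves with treatment, and RNA levels say nothing of protein. Short transcripts with few unique words, and genes overlapped on the other strand, are uncertain because the strand setting was not given in the sources used here.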
